A study of Saccharomyces cerevisiae BY4741 with 2 samples.

Results

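RNA polymerase II transcribes the protein-coding genes, and its largest subunit ends in a tail of repeated short peptides, the C-terminal domain (CTD). Kinases and phosphatases add and remove phosphates on this tail while the enzyme moves along a gene, and the phosphate pattern decides which elongation, splicing and 3′ end processing factors can bind. The genes described here are 6 budding yeast genes of this system, chosen by name: the polymerase subunit genes RPB3 and RPB4, the kinase subunit genes CTK1, CTK2 and CTK3, and the CTD phosphatase gene SSU72. Of these, 5 are on the rows used, on 6 of 3146 rows and among 2809 distinct gene names, because CTK3 stands on 2 rows. RPB3, a core subunit related to the bacterial alpha subunit, was not analysed here.

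RNA was compared between a Saccharomyces cerevisiae strain with DBP2 deleted and a wild-type reference strain. The Dbp2 protein is a DEAD-box helicase that unwinds RNA. Both strains are labelled as haploid MATa cells of BY4741. The deletion strain carried dbp2::KanMx together with ura3Δ0, leu2Δ0 and his3Δ0, was TRP1, and is also labelled met- and lysΔ. The wild type carried his3Δ1, leu2Δ0, met15Δ0 and ura3Δ0, so that the lysine auxotrophy and the his3 allele differ between the strains besides DBP2. Both were grown in rich medium with 2% glucose at 30°C to mid-log phase. Total RNA was depleted of ribosomal RNA and sequenced with strand-specific SOLiD libraries. The labels name 2 replicates per strain, but each strain has 1 deposited value per row. No difference below has a replicate check, no test was possible, and direction words describe the pair of values only. Values are FPKM (fragments per kilobase of transcript, scaled to the size of the library), a scale that allows levels of different genes to be compared. The depth behind them is unknown. DBP2 itself was at 2.52, 3.70 and 3.33 FPKM on its 3 rows in the deletion strain, against 1539.7, 348 and 5.62 FPKM in wild type. STE2, the receptor gene of a cells, had 433 FPKM in the deletion strain and 433 FPKM in wild type. In the deletion strain the a-cell genes STE6, BAR1 and MFA2 had 357, 32.2 and 737 FPKM, against 462, 141 and 915 FPKM in wild type. The alpha-cell receptor gene STE3 had 2.56 FPKM in the deletion strain and 2.08 FPKM in wild type. The alpha-cell gene MATALPHA1 had 2.39 FPKM in the deletion strain and 4.10 FPKM in wild type. SAG1, also an alpha-cell gene, stood on 2 rows, at 11.2 and 20.8 FPKM in the deletion strain and 5.18 and 33.8 FPKM in wild type. The markers were therefore not all alike between the strains.

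CTK1, CTK2 and CTK3 encode the subunits of a single enzyme, CTD kinase I. Ctk1 is the cyclin-dependent kinase, Ctk2 the cyclin and Ctk3 a further subunit, and the complex phosphorylates the CTD during elongation. The genes lie apart from each other: CTK1 (YKL139W) on chromosome XI at 182958 to 184544, CTK2 (YJL006C) on chromosome X at 423138 to 424109 on the minus strand, and CTK3 (YML112W) on chromosome XIII at 45063 to 45953. Each has 1 coding exon in the RefSeq annotation of assembly R64, which is the assembly of the build name sacCer3. The upstream regions of the 3 genes are shown because the subunits share an enzyme while their values differ. Each runs from 250 bases before the annotated start codon to 50 bases from it, read 5′ to 3′ along the gene from chrXI:182708-183007 (plus strand), chrX:424060-424359 (minus strand) and chrXIII:44813-45112 (plus strand). Capitals mark the start codon ATG and each match to the TATA element TATAAA or to its reverse complement TTTATA.
CTK1: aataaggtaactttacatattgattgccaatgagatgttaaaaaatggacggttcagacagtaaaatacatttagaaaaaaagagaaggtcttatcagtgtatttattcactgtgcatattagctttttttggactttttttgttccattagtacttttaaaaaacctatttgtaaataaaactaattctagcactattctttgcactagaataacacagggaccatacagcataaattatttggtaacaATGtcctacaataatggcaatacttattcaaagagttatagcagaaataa
CTK2: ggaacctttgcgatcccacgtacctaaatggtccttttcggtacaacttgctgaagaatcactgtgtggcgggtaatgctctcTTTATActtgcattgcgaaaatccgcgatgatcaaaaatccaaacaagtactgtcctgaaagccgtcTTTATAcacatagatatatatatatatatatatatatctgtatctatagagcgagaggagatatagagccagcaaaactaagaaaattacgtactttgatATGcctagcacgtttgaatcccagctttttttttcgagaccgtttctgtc
CTK3: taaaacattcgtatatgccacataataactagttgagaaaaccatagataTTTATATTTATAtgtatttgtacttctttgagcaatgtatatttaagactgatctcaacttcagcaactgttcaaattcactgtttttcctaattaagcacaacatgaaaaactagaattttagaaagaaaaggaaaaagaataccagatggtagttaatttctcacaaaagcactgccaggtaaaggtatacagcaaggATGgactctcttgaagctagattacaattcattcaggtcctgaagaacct
The CTK1 window holds no match. CTK2 has 2 matches on the other strand, which begin at positions -167 and -100 before the start codon. CTK3 also has 2 on the other strand, side by side at -200 and -194. Matches are common, since 45.2% of the 6001 nuclear protein-coding windows of the same length hold at least 1 on either strand. The SSU72 window holds 1 match on the gene strand at -24, and the RPB4 window holds none.

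CTK1 and CTK2 each differed little between the strains, while the CTK3 rows differed in opposite directions. CTK1 was at 83.2 FPKM in the deletion strain and 99.5 FPKM in wild type, a ratio of 0.836. CTK2 was at 49.2 FPKM in the deletion strain and 46.3 FPKM in wild type, a ratio of 1.06. On the log2 scale with a pseudocount of 1 FPKM these are differences of -0.26 and 0.09. Within the deletion strain CTK1 exceeded CTK2 by 1.69-fold, against 2.15-fold in wild type. This ratio between subunits does not depend on how the strains were scaled to each other.

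The first CTK3 row was at 68.9 FPKM in the deletion strain and 14.2 FPKM in wild type, which is 4.86-fold higher in the deletion strain (log2 difference 2.20). The second CTK3 row was at 3.30 FPKM in the deletion strain and 19.6 FPKM in wild type, 5.93-fold lower in the deletion strain (log2 difference -2.26). The first row therefore carried the higher value in the deletion strain and the lower value in wild type. It made up 95.4% of the sum of both rows in the deletion strain and 42.0% in wild type. If the rows may be added, which the files do not state, their sum was 72.2 FPKM in the deletion strain and 33.8 FPKM in wild type, a ratio of 2.14.

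**Figure D1:**
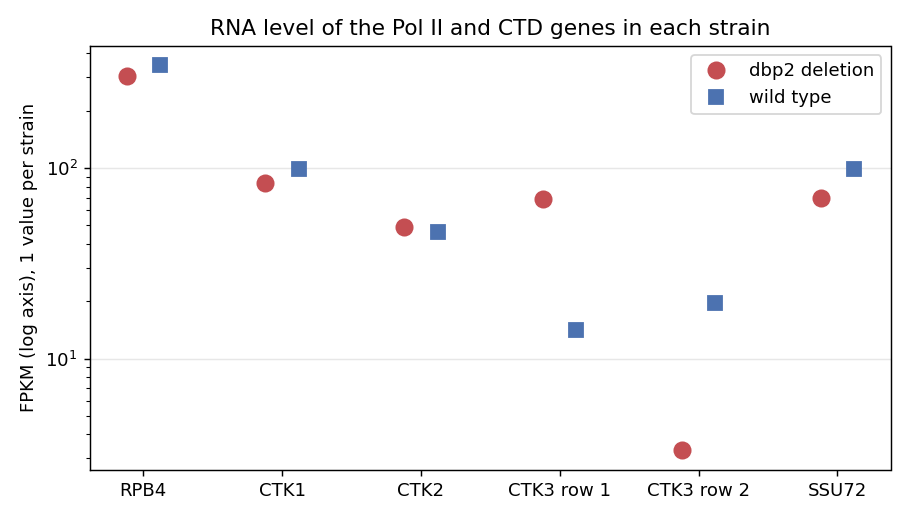
RNA level in FPKM on a log axis for the 6 member rows, with 1 point per strain (circles, dbp2 deletion; squares, wild type). RPB4, CTK1, CTK2 and SSU72 have close points, and the CTK3 rows lie 4.86-fold apart in favour of the deletion strain and 5.93-fold apart in favour of wild type.

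Names on several rows often behaved in this way. Of 276 names on exactly 2 rows, 258 had values above 0 in both strains and a mean of at least 1 FPKM on each row. In 144 of them (55.8%) the rows differed in direction, and in 24 (9.3%), CTK3 included, they did so with both rows past 2-fold. The gap between the log2 differences of the rows was 4.46 for CTK3 and 1.19 at the median of the 258 names, and only 4 names had a wider gap. What distinguishes the rows of a name is not given in the sources used here, so neither CTK3 value can be assigned to a transcript or a part of the gene.

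**Figure D2:**
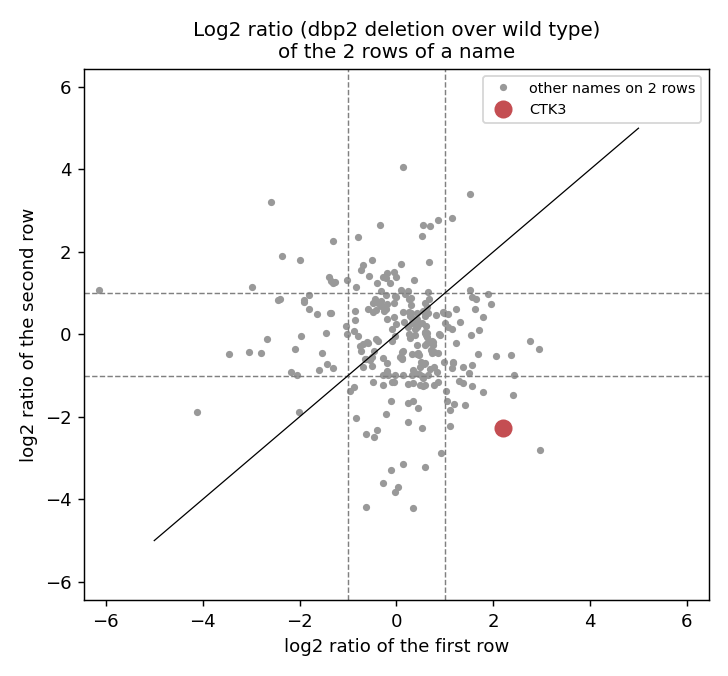
Log2 difference between dbp2 deletion and wild type of the second row against that of the first row, for the 258 names on 2 rows. Dashed lines mark 2-fold and the solid line equal values, and CTK3 (red) lies at 2.20 and -2.26, among the names far from the solid line.

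RPB4 and SSU72 stood on 1 row each, and both were lower in the deletion strain as deposited. Rpb4 forms a dissociable pair with Rpb7 on the polymerase and also takes part in messenger RNA decay. Its gene, YJL140W, lies on chromosome X at 150961 to 151626 with 1 exon. RPB4 was at 303 FPKM in the deletion strain and 347 FPKM in wild type, a ratio of 0.873 and a log2 difference of -0.20. Ssu72 removes phosphates from serines of the CTD, works within the cleavage and polyadenylation factor and binds its subunit Pta1. SSU72 (YNL222W) lies on chromosome XIV at 229094 to 229714 with 1 exon. It was at 70.1 FPKM in the deletion strain and 98.8 FPKM in wild type, a ratio of 0.709 and a log2 difference of -0.49. Relative to RPB4, SSU72 was at 0.232 in the deletion strain and 0.285 in wild type. In bulk RNA such differences cannot separate fewer cells expressing a gene from less RNA per cell.

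The order of levels was alike at the top. In the deletion strain RPB4 was highest, followed by CTK1, SSU72, the first CTK3 row, CTK2 and the second CTK3 row. In wild type RPB4 was again highest, followed by CTK1, SSU72, CTK2, the second CTK3 row and the first. Neighbouring values such as 70.1 FPKM for SSU72 and 68.9 FPKM for the first CTK3 row in the deletion strain, or 99.5 FPKM for CTK1 and 98.8 FPKM for SSU72 in wild type, cannot be ranked without replicates. Against the 2211 genes on a single row with values above 0 in both strains and a mean of at least 1 FPKM, RPB4 exceeded 83.6% in the deletion strain and 82.7% in wild type. CTK1 exceeded 47.8% in the deletion strain and 53.8% in wild type, and CTK2 33.3% in the deletion strain and 34.6% in wild type. SSU72 exceeded 43.3% in the deletion strain and 53.6% in wild type. The first CTK3 row exceeded 42.9% of these genes in the deletion strain and 16.5% in wild type, and the second 7.24% in the deletion strain and 20.1% in wild type.

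**Figure D3:**
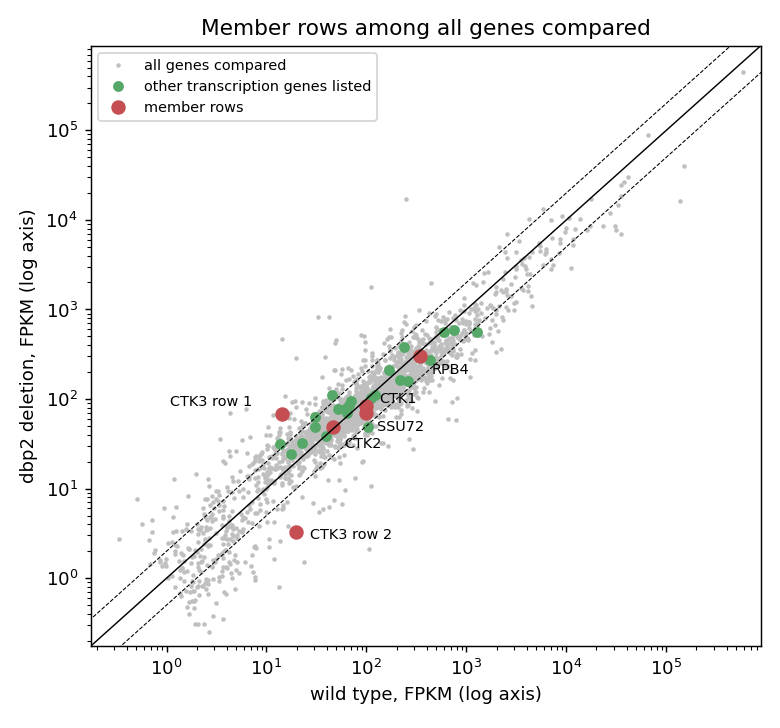
FPKM in the dbp2 deletion strain against wild type on log axes, with member rows in red, the other transcription genes in green and the 2211 genes compared in grey. The solid line marks equal values and the dashed lines 2-fold, and the CTK3 rows are the sole red points outside the dashed lines.

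With a limit of 2-fold, 0 of the 4 members on a single row passed in either direction. Of all 2211 genes compared, 8.86% passed it upwards and 10.9% passed it downwards in the deletion strain. Of the 2 CTK3 rows, 1 passed in each direction, where 10.4% of 2832 rows passed upwards and 12.3% downwards once rows of repeated names were kept. These 2832 rows include the 2211 genes on a single row, whose shares are lower. The shares among rows of repeated names alone must therefore lie above 10.4% upwards and 12.3% downwards. The members' log2 differences were then set beside those of the 200 genes nearest to each in mean level. The interquartile range of these was -0.79 to 0.23 for RPB4, -0.34 to 0.29 for CTK1 and -0.25 to 0.52 for CTK2, and each member lay inside its range. SSU72, at -0.49, lay below its range of -0.36 to 0.33. The CTK3 rows, at 2.20 and -2.26, lay outside -0.12 to 0.62 and -0.12 to 0.93. These ranges come from genes on a single row, not from rows of repeated names.

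The direction of the smaller differences depended on the scaling. With the sum over the 1986 protein-coding genes compared made equal in the 2 strains, every plain ratio moved up by 0.47 on the log2 scale (less for low genes once the pseudocount is added). RPB4 then stood at 0.27 and CTK1 at 0.21 in place of -0.20 and -0.26, so their sign turned, while CTK2 was at 0.55 and SSU72 at -0.03. The CTK3 rows stayed past 2-fold in opposite directions, at 2.67 and -1.89. Under this scaling 19.9% of the 2211 genes lay 2-fold or more above wild type in the deletion strain and 4.57% lay 2-fold or more below it. The median log2 difference of all 2211 genes moved as well, from -0.08 to 0.38. RPB4 and CTK1 lay below that median both as deposited and with equal sums. With equal medians in place of equal sums, RPB4 stayed at -0.20 and CTK1 at -0.26.

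**Figure D4:**
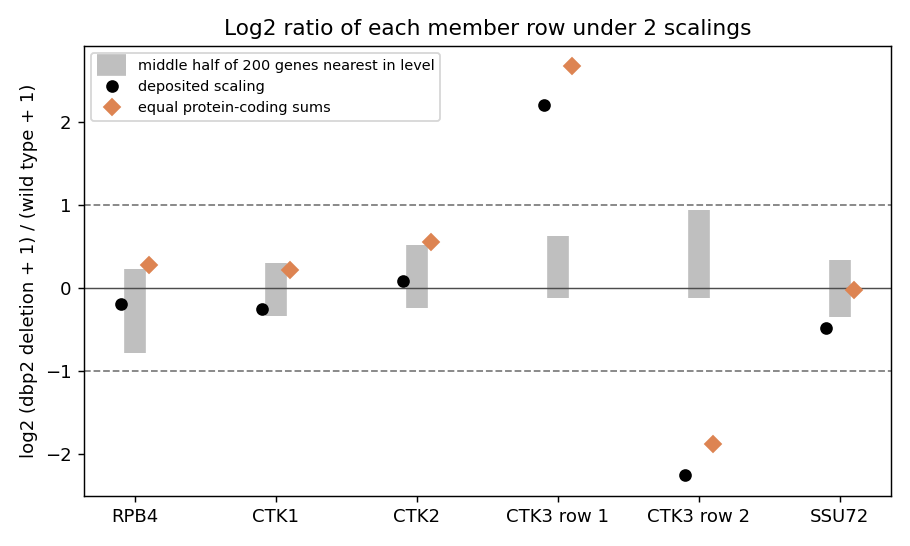
Log2 ratio of dbp2 deletion over wild type, with a pseudocount of 1 FPKM, for the 6 member rows as deposited (black circles) and with equal protein-coding sums (orange diamonds). Grey bars give the interquartile range of the 200 genes nearest in level as deposited, so they apply to the black circles only. Dashed lines mark 2-fold, and RPB4 and CTK1 change sign between the scalings.

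Genes next to the members were read as well, because neighbouring transcripts can share reads and the use of strand in counting is not given in the sources used here. RPB4 lies between YAK1, which starts in the opposite direction 570 bases away, and YUR1, which converges on it with a gap of 86 bases. YAK1 was at 59.5 FPKM in the deletion strain and 35.0 FPKM in wild type, and YUR1 at 72.5 FPKM in the deletion strain and 41.3 FPKM in wild type. Both were thus higher in the deletion strain, unlike RPB4 as deposited. CTK3 lies between DAT1 and BUL2 on the same strand, with gaps of 271 and 988 bases. DAT1 was at 142 FPKM in the deletion strain and 118 FPKM in wild type, and BUL2 at 58.6 FPKM in the deletion strain and 42.4 FPKM in wild type, so neither showed a difference as large as the CTK3 rows. SSU72 follows ATG4, which was at 32.9 FPKM in the deletion strain and 35.8 FPKM in wild type. On its other side SNR19, the gene of the U1 small nuclear RNA, converges on SSU72 with a gap of 390 bases and was 2.41-fold higher, at 10140 FPKM in the deletion strain and 4211 FPKM in wild type. Around CTK1, TGL1 and HSK3 were at 0.602 and 0.700 of wild type. Beside CTK2, the transfer RNA gene EMT3 was 1.51-fold higher and SUP51 was listed at 0 in both strains. The part of shared reads in any member's value was not tested.

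Other genes of the same machinery were taken from 7 lists covering polymerase subunits, CTD kinases, CTD phosphatases and isomerase, cleavage and polyadenylation, elongation and capping, initiation, and polymerase assembly. Without the members these hold 81 genes, of which 24 were on the rows and compared. As deposited, 13 were higher and 11 lower in the deletion strain, with 3 past 2-fold upwards (FIP1, PTA1 and NAB3) and 2 past it downwards (SET2 and TOA2). These are 12.5% upwards and 8.33% downwards of the listed genes, near the 8.86% and 10.9% of all 2211 genes. The median log2 difference of the listed genes was 0.22, beside -0.08 over all 2211 genes. With equal protein-coding sums 20 were higher and 4 lower, with 6 past 2-fold upwards (NRD1, TAF14 and TFB2 besides FIP1, PTA1 and NAB3) and 0 downwards. Under the same scaling 83.3% of the listed genes were higher and 16.7% lower, against 69.8% higher and 30.2% lower of all 2211 genes, and the median was 0.69 for the listed genes and 0.38 for all genes. The 6 past 2-fold are 25% of the listed genes, near the 19.9% of all genes, so the lists are not set apart by these counts.

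Among polymerase subunits, RPC10, which encodes a small subunit shared by all nuclear RNA polymerases, was at 556 FPKM in the deletion strain and 593 FPKM in wild type. RPB4 relative to RPC10 was 0.544 in the deletion strain and 0.585 in wild type, a ratio of 0.931 that does not depend on the scaling between strains. Among other CTD kinase genes, SSN8, the cyclin of the Mediator kinase, was at 24.3 FPKM in the deletion strain and 17.7 FPKM in wild type. ESS1, a prolyl isomerase that acts on the CTD and helps Ssu72, was at 209 FPKM in the deletion strain and 167 FPKM in wild type. NPA3, a GTPase needed for polymerase assembly and import, was at 596 FPKM in the deletion strain and 745 FPKM in wild type. None of these 4 reached 2-fold under either scaling.

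Of 8 cleavage and polyadenylation genes compared, SSU72 included, 5 were higher and 3 lower in the deletion strain, with a median of 0.39. PTA1, the scaffold that Ssu72 binds, was at 62.6 FPKM in the deletion strain and 30.3 FPKM in wild type, 2.07-fold higher. FIP1, which tethers the poly(A) polymerase, was at 31.4 FPKM in the deletion strain and 13.8 FPKM in wild type, 2.28-fold higher. MPE1, PFS2 and SWD2 were between 1.27-fold and 1.43-fold higher, whereas the poly(A) polymerase gene PAP1 was at 0.891 of wild type and the RNA-binding factor gene HRP1 at 0.643. As deposited, SSU72 and PTA1 thus had log2 differences of opposite sign, at -0.49 and 1.02. With equal protein-coding sums SSU72 was almost level with wild type, at -0.03, and PTA1 stood at 1.48.

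Of 7 elongation, CTD-binding and capping genes, 4 were higher and 3 lower, with a median of 0.12. SET2 encodes a histone methyltransferase that binds the CTD phosphorylated by Ctk1. It was at 49.1 FPKM in the deletion strain and 104.1 FPKM in wild type, 2.12-fold lower as deposited (log2 difference -1.07) and -0.61 on the log2 scale with equal protein-coding sums. NAB3 and NRD1, the RNA-binding proteins of the early termination complex, were 2.42-fold and 1.60-fold higher. CTR9 of the Paf1 complex was at 0.611 of wild type, while PAF1 was at 1.09-fold, SET1 at 1.26-fold and the capping gene CET1 at 0.986 of wild type.

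Of 6 initiation genes, 2 were higher and 4 lower as deposited, with a median of -0.12, and 5 were higher and 1 lower with equal protein-coding sums. TOA2, a TFIIA subunit, was at 561 FPKM in the deletion strain and 1262 FPKM in wild type, 2.25-fold lower (log2 difference -1.17, and -0.70 with equal protein-coding sums). TAF14, shared by several transcription complexes, was 1.62-fold higher, and the TFIIH gene TFB2 was 1.49-fold higher. SSL2 of TFIIH and the TFIIE genes TFA1 and TFA2 lay between 0.760 and 0.925 of wild type.

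**Figure D5:**
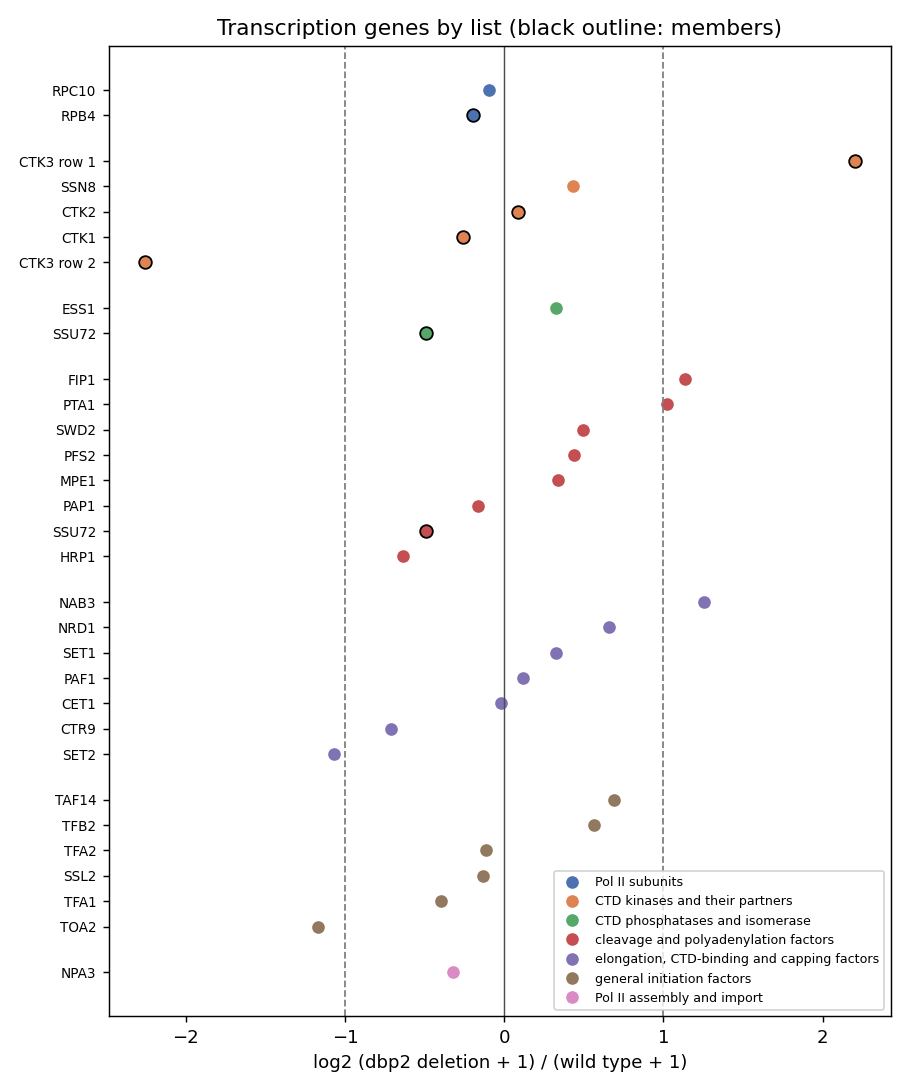
Log2 ratio of dbp2 deletion over wild type, with a pseudocount of 1 FPKM, for each gene of the 7 lists on the rows, coloured by list, with members outlined in black. Dashed lines mark 2-fold. FIP1, PTA1 and NAB3 lie above it, SET2 and TOA2 below it, and the CTK3 rows lie farthest out on both sides.

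The genes most like each member were those nearest to it in log2(FPKM + 1) over the 2 strains, a measure that 1 value per strain makes coarse. RTT10 lay nearest to RPB4, at 306 FPKM in the deletion strain and 345 FPKM in wild type, followed by MAK31. EEB1 and NUP82 were nearest to CTK1, URB2 and KKQ8 to CTK2, and PXL1 and TRL1 to SSU72. For the first CTK3 row these were YHR097C, at 63.3 FPKM in the deletion strain and 14.5 FPKM in wild type, and ESBP6. For the second they were YBL107W-A, at 3.31 FPKM in the deletion strain and 21.0 FPKM in wild type, and YPL257W-B.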

How the data were processed

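RNA of 2 strains was measured with 1 deposited sample each. The authors deposited 1 FPKM value per gene row and strain. The unit follows from Cuffdiff 2.1.1, named per the submitters' processing notes with the build sacCer3, and from values that are not whole and sum beyond what CPM or TPM allow. No aligner, annotation, strand setting or pooling of replicates is given in the sources used here. Values times coding length were searched for whole steps over many trial step sizes. At the best step size 30.4% of 125 genes in the deletion strain lay within 0.1 of a whole number. An even spread gives 20% at a single step size and more at the best of many. The length used by Cuffdiff may also differ from coding length. The search could not settle the depth, so depth is unknown and no interval was computed. Rows of repeated names and rows naming several genes were left out of the 2211 genes compared. The log2 ratio used a pseudocount of 1 FPKM, which understates changes of low genes, and a filter of 1 FPKM on the mean. The ratio formula was run on simulated single-row genes with known changes and little noise. That run checks the code and says nothing on the error of the differences given here. Names were matched to RefSeq R64 (2454 of 2809), which also gave the sequences. Alternatives were pseudocounts of 0.1 and 10, other filters, a limit of 1.5-fold, equal protein-coding sums, equal medians and repeated rows kept. Genes named were the members, DBP2, the a-cell and alpha-cell marker genes, the listed genes, immediate neighbours and the 2 nearest genes per member row. MAS2, named for the scaling, was chosen after its values were seen. Members and lists were chosen with earlier results of these data known. Python 3.11.15, numpy 2.4.6, pandas 2.3.3 and matplotlib 3.10.9 were used.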

Additional observations from a re-analysis of the deposited data

How the results depend on the processing

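Of 70 recomputed values, 60 kept their direction and their side of the 2-fold limit with a shift of less than 1.5-fold, or, for counts, stayed within 1.5 times. Many of these could hardly move. Equal medians, for 14 of the values, shifted ratios by only -0.0075 on the log2 scale. Equal protein-coding sums moved 5 of 14 values. With equal protein-coding sums RPB4 moved to 0.27, CTK1 to 0.21 and the median of the initiation genes to 0.34 on the log2 scale, and 441 genes in place of 196 passed 2-fold upwards in the deletion strain and 101 in place of 241 downwards. A pseudocount of 10 FPKM moved the second CTK3 row to -1.15 and the genes past 2-fold upwards to 111, and keeping rows of repeated names gave 295. Setting equal sums over all 2678 protein-coding rows, an alternative chosen after seeing the data, shifted ratios by 2.09 on the log2 scale. These sums hold 1 MAS2 row at 273378 FPKM in the deletion strain and 3010000 FPKM in wild type. Of the member rows, 5 then passed 2-fold upwards (1 as deposited) and 0 downwards (1 as deposited). The cause of these shifts was not tested. The CTK3 rows kept opposite directions in every setting run, but no setting run could have made them alike. A pseudocount, filter or limit cannot turn the direction of a ratio. The largest rescaling, by 2.09 on the log2 scale, was smaller than the log2 difference of the second row, at -2.26. No paired analysis was possible because each strain has 1 value column. With unknown depth and no replicates, the differences of RPB4, CTK1, CTK2 and SSU72 cannot be told from error. The same holds for the larger differences of the CTK3 rows, which also rest on 1 value per strain.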
